A study of Mus musculus with 8 samples.

Results

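The genes described here are those of red blood cells: the globins, the red cell membrane and its skeleton, heme synthesis and iron uptake, and the transcription factors and receptor of the erythroid lineage. They were taken from a list of 39 genes compiled with earlier results of these data known. Of the 39, 32 were read by a probe set (a group of array probes reported as 1 value) that named only that gene, out of 22180 genes measured in this way, and where a gene had several such probe sets the one with the highest mean over the 8 arrays was used. Another 4 (Hba-a1, Hba-a2, Hbb-bs and Alas2) were read only by probe sets that named several genes, and are given apart. The remaining 3 (Hbb-bt, Epb41 and Ahsp) were not analysed here.

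The study compared whole kidneys on 1-colour arrays, dissected from mouse embryos of stage E14.5, counted in days of embryonic development. There were 4 wild-type control embryos and 4 of genotype Grb2 UB-cKO, called Grb2-cKO below, in which Grb2 was knocked out in the ureteric bud. The ureteric bud is the epithelial outgrowth that branches into the collecting ducts, and the Grb2 protein couples activated growth factor receptors to RAS. All 8 embryos came from 1 litter, both kidneys of an embryo were pooled, and 200 ng of total RNA was amplified for each array. Neither the Cre driver of the knockout nor the strain of the litter is given in the sources used here. The RNA came from the whole organ, with its stroma, vessels and blood, so a change here was not located to the cells that lost Grb2. In whole-organ RNA, more cells of a type and more RNA per cell cannot be told apart. Values are log2, so a difference of 1 is a 2-fold change, and a value shows how a gene differs between embryos, not how it compares with another gene. Each array is a separate embryo, and p-values measure the spread between littermates.

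Red blood cells form in waves. The first, primitive wave arises in the yolk sac and its cells carry embryonic globins, Hba-x (zeta), Hbb-y (epsilon y) and Hbb-bh1 (beta h1); these cells circulate as nucleated cells that lose their nuclei over midgestation. The definitive wave matures in the fetal liver and its cells carry the adult alpha and beta globins. The embryonic kidney is not regarded as a site of red cell formation, and red cell transcripts in it are usually taken to come with the blood in its vessels. Heme, the iron-carrying group of hemoglobin, is made in every cell, in a pathway that starts and ends in mitochondria, but erythroid cells use their own first enzyme (Alas2) and mitochondrial iron importer (Slc25a37, mitoferrin 1).

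Several arrays stood apart before any red cell gene was considered. Grb2 itself was 8.68, 8.65, 8.61 and 8.66 in control embryos 1 to 4 and 8.36, 8.17, 8.22 and 8.07 in Grb2-cKO embryos 1 to 4, a fall of 0.45 (standard error, SE, 0.07, adjusted p = 0.0017 in limma with Benjamini-Hochberg adjustment over all genes). The mean of 3 Y-linked genes was 9.94 to 10.1 in all 4 Grb2-cKO embryos and in control 3, and 4.09 to 4.24 in controls 1, 2 and 4. Xist, the X-inactivation RNA, was the reverse, at 12.2 to 12.8 in controls 1, 2 and 4 and 4.95 to 6.03 in the other 5 embryos. Sex and genotype therefore overlapped except in control 3. Markers of fetal liver stood apart in Grb2-cKO embryos 1 and 4: the mean of 8 such genes was 6.37 to 6.44 in controls, 6.48 and 6.68 in Grb2-cKO 2 and 3, but 8.59 in Grb2-cKO 1 and 7.49 in Grb2-cKO 4. Alb, the serum albumin gene, read 12.2 in Grb2-cKO 1, 9.95 in Grb2-cKO 4, 7.43 in Grb2-cKO 3 and 6.83 in Grb2-cKO 2, against 6.40 to 6.94 in controls. The fetal liver is the main site of red cell production at this age, so values without Grb2-cKO 1 and 4 are given for each of the 39 genes that passed, and for the wider lists as counts. Of 8 embryonic kidney markers, 5 fell, 3 rose, and they averaged 9.94 to 10.1 in controls and 9.31 to 9.56 in Grb2-cKO. At the same threshold, an adjusted p of 0.05 in limma, 14.3% of all genes fell and 13.7% rose.

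Of the 32 genes, 12 were higher and 3 lower in Grb2-cKO at an adjusted p of 0.05, and 17 did not pass. In all genes tested, 13.7% were higher and 14.3% lower at the same threshold, so the 12 higher exceed and the 3 lower do not exceed the background share. The median log2 fold change was 0.33 for the 32 genes and 0.0058 for all genes, and 23 of the 32 were above 0. The 12 higher genes were the 3 primitive globins Hba-x, Hbb-bh1 and Hbb-y, the membrane genes Slc4a1, Epb42, Sptb and Kel, the heme and iron genes Ppox, Fech and Slc25a37, and Trim10 and Tspo2. The 3 lower genes were Tfrc, Alad and Bpgm. In these 15 genes the 2 groups did not overlap. Groups without overlap occurred in 15.2% of all genes with Grb2-cKO higher and in 16% with it lower. Without Grb2-cKO 1 and 4, 7 of the 32 were higher and 1 was lower, against 8.46% and 9.07% of all genes.

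**Figure D1:**
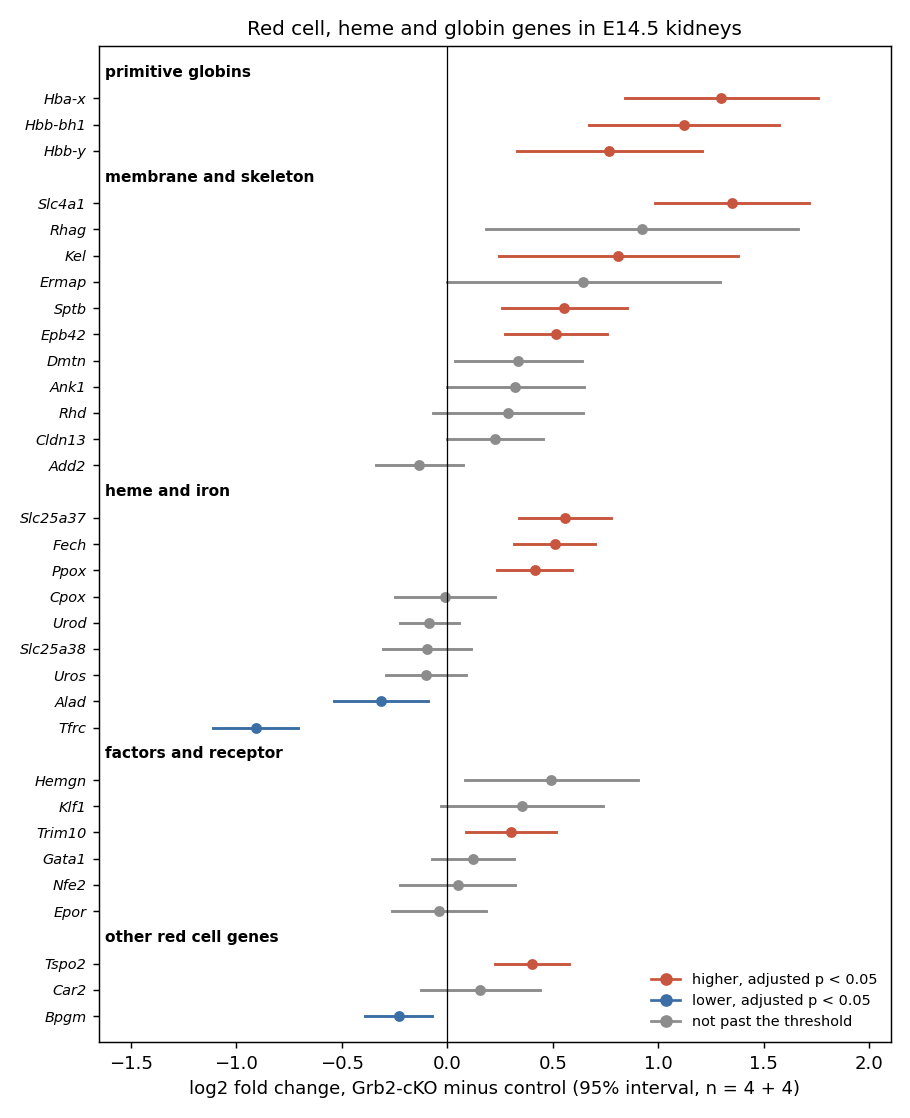
Log2 fold change of each of the 32 genes (Grb2-cKO minus control, 4 embryos each; points are estimates, bars 95% intervals of the limma model), sorted within functional groups. All 3 primitive globins lie right of 0, the membrane genes mostly do, and the heme and iron genes split from Slc25a37 at 0.56 to Tfrc at -0.91.

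The globin loci are shown through the 250 bases before the start site of 4 genes, from RefSeq on GRCm38.p6, because probe sets of embryonic and of adult genes of both clusters rose, and these stretches hold the motifs that erythroid factors are known to bind. Capitals mark a GATA box (AGATAA or TGATAA, on either strand), which GATA1 binds, a CACCC box (CCNCNCCC, on either strand), which KLF1 binds in the adult beta-globin gene, and a TATA box (TATAAA, on the strand of the gene). Each is written in the direction of its gene. Hba-x lies at chr11:32276350-32276599 on the plus strand, Hba-a1 at chr11:32283422-32283671 on the plus strand, Hbb-y at chr7:103853208-103853457 on the minus strand and Hbb-bs at chr7:103827929-103828178 on the minus strand.
Hba-x: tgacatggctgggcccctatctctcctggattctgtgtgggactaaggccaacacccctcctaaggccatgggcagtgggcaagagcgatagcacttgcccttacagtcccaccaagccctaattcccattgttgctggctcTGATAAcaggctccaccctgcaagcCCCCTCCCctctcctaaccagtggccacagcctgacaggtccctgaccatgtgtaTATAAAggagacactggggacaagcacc
Hba-a1: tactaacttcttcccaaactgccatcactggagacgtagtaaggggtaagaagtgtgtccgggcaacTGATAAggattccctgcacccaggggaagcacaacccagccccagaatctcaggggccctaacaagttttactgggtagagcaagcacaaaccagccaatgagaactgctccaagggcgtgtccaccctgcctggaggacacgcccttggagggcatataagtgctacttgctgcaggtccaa
Hbb-y: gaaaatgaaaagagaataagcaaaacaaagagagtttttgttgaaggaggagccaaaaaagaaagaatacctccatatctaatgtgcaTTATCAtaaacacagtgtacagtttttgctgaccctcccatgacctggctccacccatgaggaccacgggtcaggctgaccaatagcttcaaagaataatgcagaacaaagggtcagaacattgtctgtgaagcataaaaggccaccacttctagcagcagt
Hbb-bs: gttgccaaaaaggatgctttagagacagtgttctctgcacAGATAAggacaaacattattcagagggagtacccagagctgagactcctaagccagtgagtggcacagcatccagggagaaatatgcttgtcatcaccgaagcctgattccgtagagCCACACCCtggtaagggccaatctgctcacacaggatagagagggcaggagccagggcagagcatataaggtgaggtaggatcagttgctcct

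In the Hba-x window the GATA box began 108 bases, the CACCC box 83 bases and the TATA box 28 bases before the start. That CACCC box reads CCCCTCCC, which matches the pattern CCNCNCCC but does not hold the letters CACCC. The stretch ccaccc in Hba-x, Hba-a1 and Hbb-y does not match the pattern and was left unmarked. The stretch tataag in Hba-a1 and Hbb-bs was unmarked too, because only TATAAA was counted. A window without a mark may therefore still hold such letters. The GATA box began 183 bases before the start in Hba-a1, 210 in Hbb-bs and 162 in Hbb-y, where it is read on the opposite strand. Hbb-bs also held a CACCC box 93 bases before its start. RefSeq gave 34 windows for 29 of the 39 genes. A GATA box was found in 17 of the 34 (50%) and in 16.6% of all 32851 promoter windows of the same length. A match to the CACCC box pattern was found in 55.9% of the windows and 45.9% of all windows, and to the TATA box pattern in 8.82% and 7.59%. Among genes with a window, a GATA box was present in 5 of 8 that were higher in Grb2-cKO, 8 of 12 that did not pass, 0 of 3 that were lower and 4 of 6 that had no probe set of their own or were not analysed. A match is a description of these letters and does not show that a factor is bound.

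All 3 primitive globins were higher in Grb2-cKO. Hba-x, the zeta chain of the first embryonic hemoglobins, read 5.94, 6.13, 6.43 and 6.98 in controls 1 to 4 and 7.93, 7.74, 7.43 and 7.58 in Grb2-cKO 1 to 4. Every Grb2-cKO value exceeded every control value, with the controls spread over a wider range. Its fold change was 2.46 (log2 1.30, SE 0.20, adjusted p = 0.0013 in limma). Hbb-bh1, an embryonic beta-type chain, read 4.62, 5.37, 5.24 and 5.40 in controls and 6.31, 6.70, 5.91 and 6.18 in Grb2-cKO, a 2.17-fold rise (log2 1.12, SE 0.20, adjusted p = 0.00255). Control 1 was the lowest here and the other 3 controls lay close together. Hbb-bh1 was dim, brighter than only 25.33% of genes. Hbb-y, the other embryonic beta-type chain, read 9.15, 9.52, 9.88 and 10.26 in controls and 10.54, 10.51, 10.40 and 10.44 in Grb2-cKO, a 1.70-fold rise (log2 0.77, SE 0.20, adjusted p = 0.0152). The Grb2-cKO values of Hbb-y were nearly equal (SD 0.063, n = 4), while the controls spread (SD 0.48, n = 4), and control 4 came close to the lowest Grb2-cKO embryo.

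Grb2-cKO 1 and 4, the embryos with high liver markers, were not together the 2 highest Grb2-cKO embryos for any of the 3 primitive globins. Without them Hba-x was at 1.21 (adjusted p = 0.0184) and Hbb-bh1 at 1.15 (adjusted p = 0.0254), and Hbb-y was at 0.75 and no longer passed (adjusted p = 0.0956). When the level of the Y-linked genes entered the model as a covariate, none of the 3 globins passed: Hba-x was at 1.23 (adjusted p = 0.0728), Hbb-bh1 at 1.01 (adjusted p = 0.117) and Hbb-y at 0.58 (adjusted p = 0.347). Control 3, the only control with Y-linked signal, lay within the range of the other controls for all 3.

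The adult globins were read by shared probe sets, and no value belongs to 1 gene. They were fitted with all 41345 probe sets, of which 8.04% were higher in Grb2-cKO. The brighter of the 2 probe sets of the adult alpha pair Hba-a1 and Hba-a2 read 12.81, 12.95, 13.08 and 13.17 in controls and 13.47, 13.55, 13.50 and 13.58 in Grb2-cKO, a rise of 0.52 (SE 0.09, adjusted p = 0.00527). This probe set was brighter than 99.63% to 99.97% of all probe sets on each array, where the highest values were 13.95 to 14.08, so it lay close to the top of the scale; whether that narrowed the difference was not tested. The other alpha probe set rose by 0.27 (SE 0.07, adjusted p = 0.0388). The brightest probe set of the adult beta genes, which names Hbb-b1, Hbb-b2 and Hbb-bs, read 7.78, 7.72, 8.52 and 8.15 in controls and 8.69, 9.09, 8.80 and 8.82 in Grb2-cKO, a rise of 0.81 (SE 0.18, adjusted p = 0.0154). The other 2 adult beta probe sets rose by 0.84 (SE 0.19, adjusted p = 0.0166) and 0.48 (SE 0.11, adjusted p = 0.0204). In all 5 adult globin probe sets the groups did not overlap. Among the 22180 genes, groups without overlap and with Grb2-cKO higher made up 15.2%, and the share over all probe sets was not counted. The 5 read only the adult alpha and adult beta genes, so they are not independent of each other. Control 3, the only control with Y-linked signal, was the highest control in every adult beta probe set and in the dimmer alpha one. In the brighter alpha probe set it lay within the range of the other controls. Without Grb2-cKO 1 and 4 none of the 5 passed in limma after adjustment and 5 did before it, with rises of 0.52 and 0.28 for alpha and 0.90, 0.78 and 0.59 for beta in the same order (adjusted p-values of 0.053 to 0.165, where 3.14% of all probe sets were higher). With the Y-linked covariate none passed after adjustment and 1 did before it, and the brightest alpha and beta probe sets were at 0.44 and 0.32 (adjusted p = 0.217 and 0.53, where 0.278% of all probe sets were higher).

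**Figure D2:**
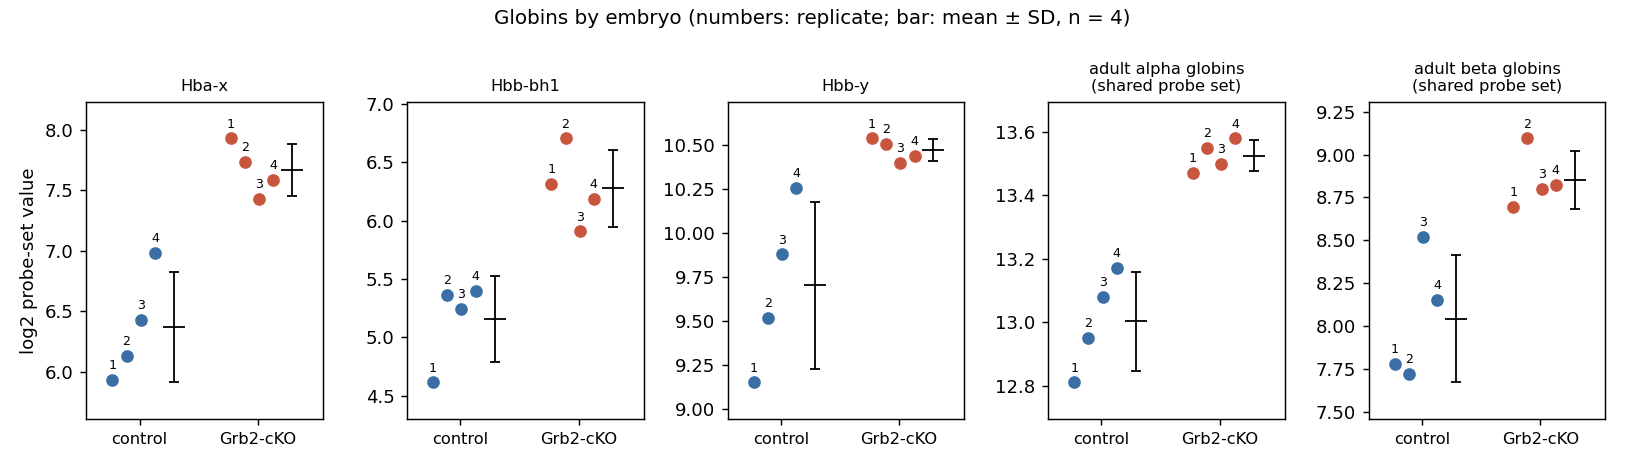
Log2 values of 3 primitive globins and of the brightest shared probe set of the adult alpha and adult beta globins in each embryo (numbers are replicates; the bar is the mean with SD, n = 4). In each panel the lowest Grb2-cKO embryo lies above the highest control, and the SD is larger in the controls.

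To set the primitive against the definitive globins, the mean of the 3 primitive genes and the mean of the brightest alpha and beta adult probe sets were taken in each embryo. The primitive mean was 1.06 higher and the definitive mean 0.67 higher in Grb2-cKO. With the Y-linked covariate the definitive mean was 0.38 higher, and 0.39 higher against control 3 alone. The difference of the 2 means carries no meaning as a level, and a contribution of the top of the scale to its shift, through the bright alpha probe set, was not tested. It was -3.73, -3.33, -3.62 and -3.11 in controls and -2.83, -3.01, -3.24 and -3.13 in Grb2-cKO. The mean of the primitive genes thus shifted by 0.40 more (SD 0.28 in controls and 0.18 in Grb2-cKO, n = 4 each). The groups overlapped: control 4 lay above Grb2-cKO 3 and 4. A larger rise did not hold for each primitive gene. Hbb-y rose by 0.77, against 0.81 for the brightest adult beta probe set. Hba-x rose by 1.30 and Hbb-bh1 by 1.12, and the brightest alpha probe set by 0.52. The shift was 0.53 with the remaining adult probe sets in place of the brightest ones, and 0.32 without Grb2-cKO 1 and 4. No p is given for this shift, since the genes were chosen with results known.

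The membrane and skeleton genes encode the anion exchanger band 3 (Slc4a1), the proteins that tie it to spectrin, and blood group antigens. Of the 11 that were read, 4 rose, against 13.7% of all genes, and 7 did not pass. Their median log2 fold change was 0.51, with a range of -0.13 to 1.35. Slc4a1 changed most: it read 8.07, 7.72, 8.05 and 8.29 in controls and 9.69, 9.38, 8.95 and 9.50 in Grb2-cKO, a 2.55-fold rise (log2 1.35, SE 0.16, adjusted p = 0.00036). All 4 Grb2-cKO embryos lay well above the highest control. Slc4a1 was the only higher gene of the 32 that passed with the Y-linked covariate, at 1.34 (adjusted p = 0.0307), and it passed without Grb2-cKO 1 and 4 as well, at 1.13 (adjusted p = 0.00515).

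The other 3 membrane genes that rose did so less. Epb42 (protein 4.2, which binds band 3) read 6.14, 6.24, 6.29 and 6.28 in controls and 6.92, 6.84, 6.42 and 6.82 in Grb2-cKO, a rise of 0.51 (SE 0.11, adjusted p = 0.00586). Sptb (beta spectrin, a filament of the membrane skeleton) read 6.74, 6.61, 6.52 and 6.85 in controls and 7.29, 7.10, 6.97 and 7.59 in Grb2-cKO, a rise of 0.56 (SE 0.13, adjusted p = 0.0113). Kel, the Kell blood group protein, read 6.03, 5.93, 5.91 and 6.16 in controls and 7.54, 6.42, 6.19 and 7.12 in Grb2-cKO, a rise of 0.81 (SE 0.25, adjusted p = 0.0376). For Kel, Grb2-cKO 3 lay just above the highest control while Grb2-cKO 1 lay far above it. None of the 3 passed without Grb2-cKO 1 and 4, with Epb42 at 0.39 (adjusted p = 0.0673), Sptb at 0.35 (adjusted p = 0.0699) and Kel at 0.30 (adjusted p = 0.0997). Nor did they pass in limma with the Y-linked covariate, at 0.45, 0.72 and 0.91 (adjusted p = 0.191, 0.0886 and 0.258).

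Among the 7 membrane genes that did not pass, 2 had large values in single embryos. Rhag, the Rh-associated glycoprotein, read 5.35, 5.56, 4.995 and 5.21 in controls and 7.23, 5.52, 5.62 and 6.42 in Grb2-cKO, a difference of 0.92 (SE 0.33, adjusted p = 0.0648). Ermap, an erythroid adhesion protein, read 6.38, 6.59, 6.34 and 6.37 in controls and 8.08, 6.46, 6.71 and 7.001 in Grb2-cKO, a difference of 0.64 (SE 0.29, adjusted p = 0.132). In both, Grb2-cKO 1 was highest and Grb2-cKO 4 next, and Grb2-cKO 2 lay among the controls. Without Grb2-cKO 1 and 4 the differences were 0.29 and 0.17. The other 5 were Dmtn (dematin) at 0.34, Ank1 (ankyrin, the anchor of band 3 on spectrin) at 0.32, Rhd (the Rh antigen) at 0.29, Cldn13 (a claudin) at 0.23 and Add2 (beta adducin) at -0.13, with adjusted p-values of 0.0948 to 0.339. A second Ank1 probe set gave 0.12.

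Membrane genes were mostly highest in the embryos with high liver markers. The liver marker mean ranked Grb2-cKO 1, 4, 3 and 2 from high to low. In 7 of the 32 genes the 4 Grb2-cKO embryos had that same order (21.9%), against 3.25% of all genes; they were 4 membrane genes (Rhag, Rhd, Ermap and Cldn13), Urod, Hemgn and Trim10. Grb2-cKO 1 and 4 were the 2 highest Grb2-cKO embryos in 8 of 11 membrane genes and in 15 of all 32 (46.9%), against 13.7% of all genes. The membrane mean was 6.70 to 6.77 in controls, and 7.66, 7.02, 6.97 and 7.39 in Grb2-cKO 1 to 4. In Grb2-cKO 2 and 3 both means lay above every control, and the liver means there were 6.48 and 6.68. The part of liver RNA in these values was not tested.

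**Figure D3:**
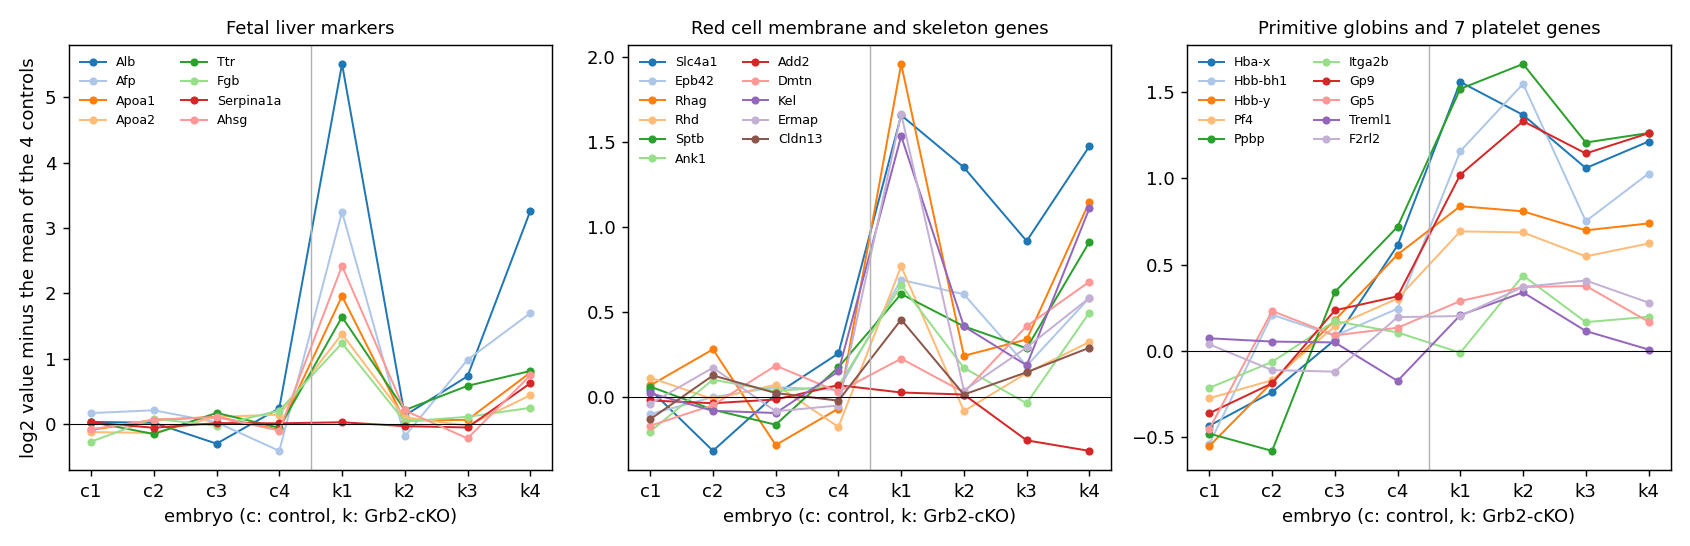
Log2 values minus the mean of the 4 controls, by embryo (c1 to c4 control, k1 to k4 Grb2-cKO), for 8 fetal liver markers, 11 membrane genes, and 3 primitive globins with 7 platelet genes; lines join the points of a gene for the eye only. Most liver markers peak in k1 and k4, most membrane genes have their highest values there too, and the 3 primitive globins and 4 of the 7 platelet genes are higher in all of k1 to k4 than in any control.

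Platelet genes were also read by embryo, but were not ranked against the liver markers. Of 7 megakaryocyte and platelet markers 4 rose (Pf4, Ppbp, Gp9 and F2rl2) and 3 overlapped between the groups and did not pass (Itga2b, Gp5 and Treml1). Their average was 6.74, 6.86, 7.11 and 7.21 in controls 1 to 4 and 7.54, 7.72, 7.55 and 7.52 in Grb2-cKO, so it was higher in each Grb2-cKO embryo than in any control. Ranges of other marker means also differed between the groups: 14 macrophage markers ran from 7.21 to 7.37 in controls and 7.98 to 8.37 in Grb2-cKO, with 11 higher, and 12 endothelial markers from 9.58 to 9.68 and 9.82 to 10.1, with 7 higher. Of 8 granulocyte and mast cell markers 1 was higher. The share of all genes that was higher, to set beside each of these marker counts, was 13.7%. Macrophages take up red cells and platelets circulate with them; the part of either in the red cell values was not tested.

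Heme and iron genes went both ways. Of the 9 that were read alone, 3 rose, 2 fell and 4 did not pass, where 13.7% of all genes rose and 14.3% fell. The median log2 fold change of the 9 was -0.085. Iron follows a route through the group: Tfrc brings iron into the cell, Slc25a37 brings it into the mitochondrion, and Fech inserts it into the ring.

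Tfrc, the transferrin receptor, fell most of all members. It read 9.66, 9.74, 9.60 and 9.53 in controls and 8.91, 8.73, 8.53 and 8.74 in Grb2-cKO, 1.88-fold lower (log2 -0.91, SE 0.09, adjusted p = 0.000154). Every Grb2-cKO embryo lay well below the lowest control. Tfrc is expressed in dividing cells of all kinds as well as in erythroid precursors. It passed with the Y-linked covariate at -0.87 (adjusted p = 0.0201) and without Grb2-cKO 1 and 4 at -1.01 (adjusted p = 0.0013).

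The 2 mitochondrial genes of the end of the pathway and the mitochondrial iron importer rose. Slc25a37 read 10.37, 10.16, 10.34 and 10.07 in controls and 10.74, 10.96, 10.62 and 10.85 in Grb2-cKO, a rise of 0.56 (SE 0.10, adjusted p = 0.00226). Ppox, protoporphyrinogen oxidase, read 9.99, 9.90, 9.91 and 9.82 in controls and 10.35, 10.16, 10.30 and 10.47 in Grb2-cKO, a rise of 0.41 (SE 0.08, adjusted p = 0.00374). Fech, ferrochelatase, read 9.47, 9.43, 9.47 and 9.50 in controls and 9.81, 9.95, 9.93 and 10.20 in Grb2-cKO, a rise of 0.51 (SE 0.09, adjusted p = 0.00189). The controls of Fech were nearly equal (SD 0.028, n = 4), and in all 3 genes every Grb2-cKO embryo was above every control. All 3 passed without Grb2-cKO 1 and 4 (Slc25a37 at 0.56, Ppox at 0.32 and Fech at 0.47, with adjusted p-values of 0.0242, 0.0419 and 0.00615). With the Y-linked covariate they were at 0.45, 0.41 and 0.49 and did not pass (adjusted p = 0.141, 0.119 and 0.087), a difference of similar size with a larger SE.

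No gene of the steps between passed as higher. Alad, the second enzyme of the pathway, read 11.56, 11.61, 11.21 and 11.33 in controls and 11.01, 11.18, 11.06 and 11.19 in Grb2-cKO, a fall of 0.31 (SE 0.10, adjusted p = 0.0401). Control 3 was the lowest control for Alad, and with the Y-linked covariate the difference was -0.09 (adjusted p = 0.783). Without Grb2-cKO 1 and 4 it was -0.30 and did not pass (adjusted p = 0.153). Uros at -0.10, Urod at -0.09, Cpox at -0.01 and Slc25a38, the glycine importer of erythroid mitochondria, at -0.10 did not pass, with adjusted p-values of 0.37 to 0.954. The 95% intervals of these 4 ran from -0.31 at the lowest to 0.23 at the highest. The probe set that names Alas2, the erythroid first enzyme, also names Apex2, a DNA repair gene, and cannot be given to either. It read 7.90, 7.67, 8.17 and 8.11 in controls and 8.67, 9.19, 8.83 and 9.11 in Grb2-cKO, a rise of 0.99 (SE 0.15, adjusted p = 0.00322, fitted with all probe sets). Control 3 was the highest control for this probe set. The probe set passed in limma without Grb2-cKO 1 and 4 at 1.05 (adjusted p = 0.0238). With the Y-linked covariate it did not pass, at 0.76 (adjusted p = 0.175).

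**Figure D4:**
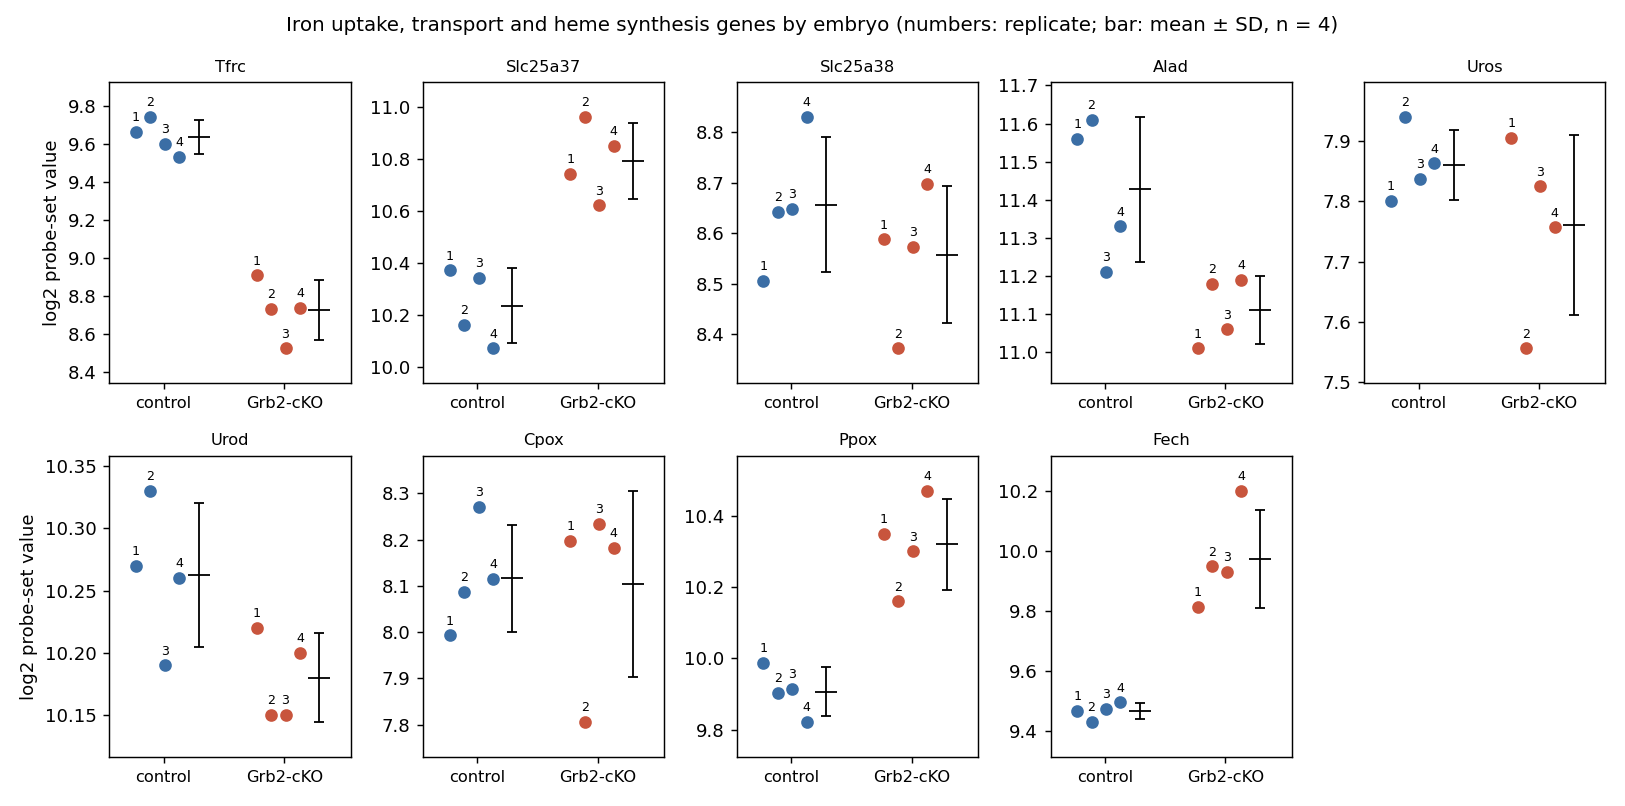
Log2 values of the 9 heme and iron genes in each embryo (numbers are replicates; the bar is the mean with SD, n = 4; each panel has its own scale). Slc25a37, Ppox and Fech are higher in every Grb2-cKO embryo than in every control, Tfrc and Alad lower, and Uros, Urod, Cpox and Slc25a38 overlap.

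Membrane and heme genes were also set against each other by embryo. The membrane mean was 0.53 higher in Grb2-cKO and the heme mean differed by -0.004. The heme mean held only the 9 genes read alone. The shared probe set of Alas2 and Apex2, which rose by 0.99, was not in it. The membrane mean minus the heme mean was -2.82, -2.80, -2.79 and -2.71 in controls and -1.87, -2.41, -2.50 and -2.20 in Grb2-cKO, a shift of 0.53 (SD 0.048 in controls and 0.28 in Grb2-cKO, n = 4 each). The groups did not overlap. The shift was 0.42 with Tfrc left out of the heme genes and 0.32 without Grb2-cKO 1 and 4.

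**Figure D5:**
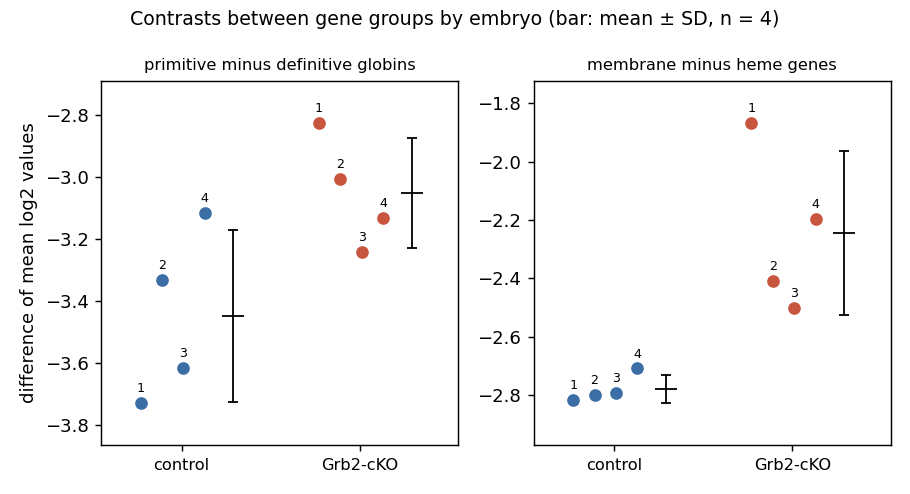
Primitive minus definitive globin mean (left) and membrane minus heme mean (right) in each embryo, as differences of mean log2 values (numbers are replicates; the bar is the mean with SD, n = 4). On the left control 4 lies among the Grb2-cKO embryos; on the right all Grb2-cKO embryos lie above the controls, with Grb2-cKO 1 and 4 highest.

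Of the 6 genes that make up the erythroid factors and receptor, 1 rose, where 13.7% of all genes did, and 5 did not pass. Trim10, a RING-type protein of maturing red cells, read 6.04, 5.86, 5.99 and 6.02 in controls and 6.54, 6.14, 6.17 and 6.26 in Grb2-cKO, a rise of 0.30 (SE 0.10, adjusted p = 0.0403). Grb2-cKO 1 stood above the rest, and without Grb2-cKO 1 and 4 the difference was 0.18 (adjusted p = 0.201). With the Y-linked covariate Trim10 was at 0.29 and did not pass (adjusted p = 0.346 in limma). The master regulator Gata1 was at 0.12 (adjusted p = 0.348), Klf1, which activates adult beta-globin, at 0.36 (adjusted p = 0.163), Nfe2 at 0.05 (adjusted p = 0.818) and Hemgn, a nuclear protein of erythroid cells, at 0.49 (adjusted p = 0.0741). Epor, the erythropoietin receptor, was at -0.04 (adjusted p = 0.821). Their 95% intervals were -0.07 to 0.32 for Gata1, -0.03 to 0.74 for Klf1, -0.22 to 0.32 for Nfe2, 0.08 to 0.90 for Hemgn and -0.26 to 0.18 for Epor. An array difference as large as that of Hba-x lay outside each of them. However, Gata1, Klf1, Nfe2 and Hemgn were dim, brighter than only 26.94%, 27.17%, 23.85% and 34.81% of genes. Whether low signal narrowed their differences was not tested, so a larger change in RNA is not excluded.

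Among other red cell genes, Tspo2, an erythroid cholesterol-binding membrane protein, read 6.35, 6.13, 6.28 and 6.32 in controls and 6.66, 6.77, 6.54 and 6.72 in Grb2-cKO, a rise of 0.40 (SE 0.08, adjusted p = 0.00385). It passed without Grb2-cKO 1 and 4 at 0.38 (adjusted p = 0.0398) and not with the Y-linked covariate, at 0.39 (adjusted p = 0.129 in limma). Bpgm, which makes the 2,3-bisphosphoglycerate that lowers the oxygen affinity of hemoglobin, read 7.50, 7.38, 7.50 and 7.56 in controls and 7.32, 7.25, 7.31 and 7.15 in Grb2-cKO, a fall of 0.23 (SE 0.07, adjusted p = 0.0357). The gap between its groups was small, with Grb2-cKO 1 just below control 2, and without Grb2-cKO 1 and 4 the difference was -0.21 and did not pass (adjusted p = 0.144). With the Y-linked covariate Bpgm was at -0.24 and did not pass (adjusted p = 0.309 in limma). Car2, carbonic anhydrase, was at 0.16 (adjusted p = 0.417).

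A wider list of erythroid genes held fewer that passed than not. Of 32 measured of 37 others, 8 rose, 2 fell and 22 did not pass, with a median of 0.19. Over all genes 13.7% were higher and 14.3% lower. These shares were 8.46% and 9.07% without Grb2-cKO 1 and 4, and 2.85% and 2.76% with the Y-linked covariate. Without Grb2-cKO 1 and 4, 5 were higher and 2 lower, with all 6 genes named next among them; with the Y-linked covariate 0 passed in limma (4 higher and 2 lower at an unadjusted p under 0.05), and the median was 0.08. The lowest p-values among those that rose belonged to Bcl11a, a repressor of embryonic globins that is expressed in other tissues too, at 0.998 (SE 0.15, adjusted p = 0.000849), Tent5c, a poly(A) polymerase, at 0.72 (SE 0.11, adjusted p = 0.00135), Lyl1, a hematopoietic transcription factor, at 0.46 (SE 0.08, adjusted p = 0.00185) and Steap3, an iron reductase, at 0.42 (SE 0.08, adjusted p = 0.00358). Those that fell were Fbxo7, a ubiquitin ligase subunit, at -0.47 (SE 0.08, adjusted p = 0.00249) and E2f2, a cell cycle factor, at -0.35 (SE 0.09, adjusted p = 0.0155).

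Of 21 measured of 25 other genes of heme and iron handling, 5 rose, 5 fell and 11 did not pass, with a median of 0.13. Over all genes 13.7% were higher and 14.3% lower. These shares were 8.46% and 9.07% without Grb2-cKO 1 and 4, and 2.85% and 2.76% with the Y-linked covariate. Without Grb2-cKO 1 and 4, 2 were higher (Hmox1 and Blvrb) and 3 lower (Ireb2, Aco1 and Flvcr1), and with the Y-linked covariate 2 were higher (Hmox1 at 1.05 and Blvrb at 0.84) and 0 lower in limma, against 5 higher and 4 lower at an unadjusted p under 0.05. Those with the lowest p-values are named. Hmox1, the inducible heme oxygenase of heme breakdown, was at 1.02 (SE 0.10, adjusted p = 0.000155), Blvrb, a biliverdin reductase, at 0.78 (SE 0.09, adjusted p = 0.000249), Alas1, the first heme enzyme of non-erythroid cells, at 0.41 (SE 0.11, adjusted p = 0.0225) and Slc48a1, a lysosomal heme transporter, at 0.45 (SE 0.13, adjusted p = 0.0263). The lower ones included the genes of both iron regulatory proteins, which stabilise Tfrc mRNA when iron is low: Ireb2 was at -0.49 (SE 0.08, adjusted p = 0.00165) and Aco1 at -0.43 (SE 0.08, adjusted p = 0.00232). Protein activity was not measured, and a link to the fall of Tfrc was not tested. Flvcr1, described as a heme exporter, was at -0.43 (SE 0.08, adjusted p = 0.00285) and Glrx5, an iron-sulfur cluster protein, at -0.31 (SE 0.07, adjusted p = 0.0103).

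Single embryos set the extremes of the 15 genes that passed. Grb2-cKO 1 was the highest of its group in 8 of the 15 and Grb2-cKO 3 the lowest in 10. Among controls, control 4 was the highest in 8. With the Y-linked covariate, 1 of the 32 was higher (Slc4a1) and 1 lower (Tfrc), near the shares over all genes of 2.85% and 2.76%, and none of the 15 changed sign. With control 3 as the only control the spread came from the 4 Grb2-cKO embryos alone, and the lone control was taken to vary as they do. In that fit 1 gene was higher (Hba-x), against 0.744% of all genes, and 0 were lower in limma (10 higher and 1 lower at an unadjusted p under 0.05), while Slc4a1 was at 1.33, Fech at 0.50 and Tfrc at -0.87. Control 3 lay within the range of the other controls for 9 of the 12 higher genes, above it for Epb42 and below it for Sptb and Kel, and it lay below every Grb2-cKO embryo for all 12.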

How the data were processed

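Kidney RNA of 8 embryos was measured on arrays. The authors deposited log2 values for 41345 probe sets, with array medians of 6.61 to 6.72. They used the Transcriptome Analysis Console, per the submitters' processing notes; background correction, summarization and normalization have no description in the sources used here. No value was normalized again, and no detection calls or batch records were used. The number of arrays limits the precision.

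The platform's annotation gave 1 symbol for 23521 probe sets, several for 1814 and none for 16010. Symbols of 23328 were updated by Entrez identifier to the GRCm38.p6 RefSeq table. Each of 1082 genes read by several probe sets was represented by its brightest one on average, which left 22180 genes.

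Grb2-cKO minus control was fitted in limma 3.58.1 under R 4.3.3, with empirical Bayes moderation, no covariate, and Benjamini-Hochberg adjustment over all genes (threshold 0.05); shared probe sets were fitted with all probe sets. In a test on simulated data (20 draws, 200 changed of 22180 genes), the fit found 54.5% of log2 changes of 0.5 and 91.7% of log2 changes of 1, and made 8.7 false calls a draw.

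Members and lists were chosen with earlier results of these data known. All globins and every member that passed are given by embryo and the others by fold change or range; of the 2 wider lists, up to 4 genes of lowest p past the threshold are named in each direction. Rhag and Ermap by embryo, and the platelet and liver genes, were chosen after their values were seen. The design had a mean of adult globin genes read alone; this could not be made, and shared probe sets were used. Alternatives were other normalizations, filters, probe-set rules, spreads, array weights, thresholds, a Y-linked covariate, control 3 alone, and each embryo left out. Leaving out Grb2-cKO 1 and 4, Tfrc, or the brightest adult probe sets was chosen after seeing the data, as were the alternatives for shared probe sets and the wider lists.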

Additional observations from a re-analysis of the deposited data

Results flagged for a closer look

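Cpox, coproporphyrinogen oxidase, in Grb2-cKO 2 stood apart from its group: it read 7.81, while the other 3 Grb2-cKO embryos read 8.18 to 8.23, a gap of 0.88 of the whole range of the group. It was the only value so far from the others among the 68 groups of 4 embryos that were tested, and chance flags about 1 in 20 groups. Outside this flagged result, Grb2-cKO 2 also stood apart in the dimmest adult beta globin probe set. It read 6.13 there, and the rest of its group 5.67 to 5.72. No explanation was tested.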

How the results depend on the processing

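The 12 higher genes numbered 8 to 12 under both other normalizations, the filter on dim genes, the mean of probe sets, all probe sets, a trended spread, array weights and a threshold of 0.01, and 10 to 15 with each embryo left out. They numbered 1 with the Y-linked covariate, 1 with control 3 as the only control and 7 without Grb2-cKO 1 and 4. The 3 lower genes numbered 1 under quantile normalization, all probe sets, the Y-linked covariate, an adjusted p of 0.01 or without Grb2-cKO 1 and 4, and 0 with control 3 alone; with each embryo left out they numbered 1 to 2. Kel, Alad, Trim10 and Bpgm were lost most often. None of the 15 changed sign under any alternative run. The shift of membrane against heme genes moved from 0.53 to 0.32 without Grb2-cKO 1 and 4, and stayed within 1 SD elsewhere (0.41 to 0.62 with each embryo left out). All 5 adult globin probe sets were lost without Grb2-cKO 1 and 4 and with the Y-linked covariate; they kept their direction. The primitive against definitive shift was 0.30 to 0.51 with each embryo left out, and 0.56 with the Y-linked covariate. Leaving out either of those embryos leaves fewer samples; the cause of the other changes was not tested. No paired analysis was possible because replicate numbers follow accession order and pair no embryos. With 4 embryos a group, only 1 male-like control and no detection calls, small changes of dim genes are not resolved.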
